A study of Mus musculus with 16 samples.

Results

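Bile acids are made in hepatocytes from cholesterol, and 9 enzymes and carriers that act after the first hydroxylations are described here: Hsd3b7, Akr1d1, Akr1c6, Amacr, Acox2, Hsd17b4, Scp2, Slc27a5 and Baat. They were taken by name, as all probes whose gene symbol in the deposited signal table equals one of these symbols. No measured value entered that rule, but earlier results of these data were known when the genes were chosen. The 9 genes, of 18138 symbols on the array, had 13 probes. Hsd3b7, Akr1d1 and members of the Akr1c family oxidise and reduce the steroid ring. In the peroxisome, Amacr turns the side chain to the form that Acox2 can oxidise, Hsd17b4 hydrates and oxidises it again, and the thiolase encoded by Scp2 cuts it short. Slc27a5 then links returning bile acids to coenzyme A, and Baat joins the activated bile acid to taurine or glycine. In liver, hydroxylase genes upstream of these steps are known targets of feedback by bile acids through the receptor Fxr and its partner Shp.

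RNA came from the livers of mice of mixed 129SV/C57BL/6 background, 16 samples in 4 groups of 4, each on 1 Illumina bead array. Chow WT mice were wild type on regular chow, and chow KO mice carried a conditional knockout of c-Met, the receptor for hepatocyte growth factor, on the same food. High cholesterol WT and high cholesterol KO mice were the same genotypes fed a diet with 2% cholesterol and, as bile salt, 0.5% sodium cholate. Feeding lasted 30 days in every group. The study compared the diets and the genotypes. The sources used here do not give what drives the deletion, nor the age and sex of the mice. Whether each sample is a separate animal is not stated either, so every p below measures the spread between these samples, which may be technical.

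Arrays detected 10811 to 11952 of 25697 probes with chow and 10028 to 11088 with high cholesterol. The median correlation of an array with the others of its group was 0.9808 to 0.9883 with chow and 0.969 to 0.9816 with high cholesterol. Probes never detected had a standard deviation of 4.47 to 5.51 intensity units with chow and 6.54 to 8.08 with high cholesterol. Whether the arrays of the diets were run separately is not given, and such a difference could not be told apart from the diet. Met, the targeted gene, was near background: its single probe was detected on 2 of 4 chow WT, 3 of 4 chow KO, 1 of 4 high cholesterol WT and 1 of 4 high cholesterol KO arrays. The Met signal therefore gave no check of the genotype labels. Below, a level is a normalized log2 signal, a difference is a difference of such levels with its standard error from limma, and n is 4 arrays a group throughout. Adjusted p-values are Benjamini-Hochberg values over the 9265 genes tested in a comparison, and a gene is said to rise or fall where its adjusted p is under 0.05. The number of arrays, 4 a group, limits the precision of every value, and in a whole liver sample fewer cells of a type and less RNA per cell cannot be told apart.

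Promoters are shown for a gene that fell on the diet in both genotypes and for a pair of side-chain genes whose brightest probe did not pass the test, so that their start regions can be read beside the levels. They come from RefSeq on build GRCm38.p6 and run from 250 bases before to 50 bases after the annotated start, 5′ to 3′ on the gene's strand. Capitals mark matches to AGGTCA or GGGTCA, half-sites of nuclear receptors, to the GC box GGGCGG and to TATAAA, all sought on both strands. The RefSeq gene table held all 9 genes, and promoter entries were used for 5 of them (Hsd3b7, Akr1d1, Akr1c6, Acox2 and Scp2). No entry was used for Hsd17b4, Amacr, Slc27a5 and Baat, which does not mean that none exists.
Hsd3b7, chr7:127800359-127800658, plus strand: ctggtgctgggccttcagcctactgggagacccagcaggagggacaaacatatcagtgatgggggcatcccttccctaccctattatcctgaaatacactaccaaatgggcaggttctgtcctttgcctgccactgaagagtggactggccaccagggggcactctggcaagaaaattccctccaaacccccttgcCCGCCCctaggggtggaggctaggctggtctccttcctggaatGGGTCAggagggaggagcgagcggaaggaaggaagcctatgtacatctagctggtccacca
Scp2, chr4:108118498-108118797, minus strand: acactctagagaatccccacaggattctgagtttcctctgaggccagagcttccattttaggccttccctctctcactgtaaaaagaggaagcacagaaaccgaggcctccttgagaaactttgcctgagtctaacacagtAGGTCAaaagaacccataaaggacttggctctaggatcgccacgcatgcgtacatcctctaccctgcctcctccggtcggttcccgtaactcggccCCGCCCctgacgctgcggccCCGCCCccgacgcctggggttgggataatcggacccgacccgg
Acox2, chr14:8258970-8259269, minus strand: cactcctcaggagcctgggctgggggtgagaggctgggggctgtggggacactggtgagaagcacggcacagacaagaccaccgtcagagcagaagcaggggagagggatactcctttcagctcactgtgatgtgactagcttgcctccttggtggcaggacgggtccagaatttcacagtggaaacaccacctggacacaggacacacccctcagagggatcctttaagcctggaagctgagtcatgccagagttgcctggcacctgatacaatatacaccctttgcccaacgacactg
The Hsd3b7 window held GGGTCA from 11 bases before the start and a GC box, read as CCGCCC, from 54 bases before it. The Scp2 window held AGGTCA from 109 bases before the start and 2 GC boxes, also read as CCGCCC. None of these 4 motifs was found in the Acox2 window, which is the outer of 2 overlapping entries for the gene. Over all 32851 promoters of the same length, AGGTCA was in 16.3%, GGGTCA in 13.7%, the GC box in 35.7% and TATAAA in 13.6%. These are matches of letters, and binding was not measured.

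Of the 9 genes, 7 passed the detection filter (a detection p under 0.05 on at least 4 arrays) and were tested. The brightest probes of Hsd3b7, Acox2, Hsd17b4, Scp2, Slc27a5 and Baat were detected on 16 of 16 arrays. Akr1d1, the delta4-3-oxosteroid 5beta-reductase that gives bile acids their bent ring, was detected on 1 chow KO and 1 high cholesterol KO array only, at intensities of -5.57 to 24.2 over all arrays. Amacr, the racemase of the side-chain branch, was detected on 0 of 16 arrays, at intensities of -2.94 to 18. These 2 genes were not tested. A signal below background does not show that a transcript is low, since the probe itself may fail.

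The comparison of the diets asked which of these genes respond to cholesterol and cholate in the food. Hsd3b7 and Slc27a5 fell in both genotypes, Baat rose in the KO, and the brightest probes of Akr1c6, Acox2, Hsd17b4 and Scp2 did not pass the test in either genotype. In WT, 2 of the 7 genes passed (0 higher, 2 lower), where 25.4% of all genes did (13.7% higher, 11.8% lower). In the KO, 3 of 7 passed (1 higher, 2 lower), where 27.6% of all genes did (15.2% higher, 12.4% lower). The WT share lies near the background, and with 7 genes neither count is a result about the set as a whole. The median difference over the 7 genes was 0.05 in each genotype, beside -0.02 in WT and -0.03 in the KO over all genes. Among all genes of the KO the calls were 1411 higher and 1148 lower, and with arrays scaled to 1 median instead of quantile-normalized 1016 higher and 1347 lower.

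**Figure D1:**
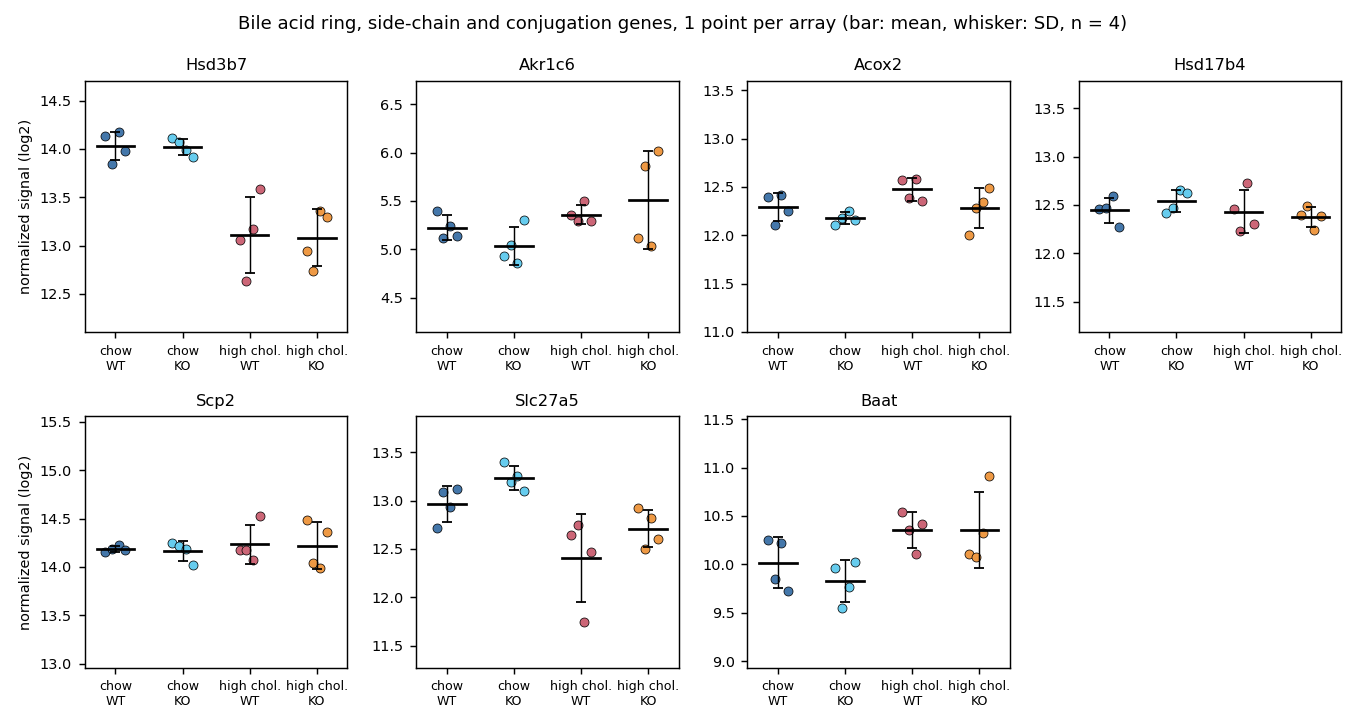
Normalized log2 signal of the brightest probe of each tested gene, 1 point per array in 4 groups of 4; bars are group means and whiskers SD, and every panel spans the same log2 range. Hsd3b7 lies at 13.85 or above on all chow arrays and at 13.59 or below on all high cholesterol arrays, and Acox2, Hsd17b4 and Scp2 overlap between the diets.

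Hsd3b7, the 3beta-hydroxy-C27-steroid dehydrogenase that starts the ring changes, had the lowest adjusted p of the 7 genes between the diets, in WT and in the KO. Its levels on chow were 14.13, 13.85, 14.17 and 13.98 in WT and 14.11, 14.07, 13.99 and 13.91 in the KO. On the high cholesterol diet they were 13.06, 12.63, 13.17 and 13.59 in WT and 12.94, 12.74, 13.36 and 13.29 in the KO. The groups did not overlap between the diets in either genotype, and WT replicate 4 was the highest of the high cholesterol arrays. On the intensity scale as deposited, the chow WT mean was 17980 ± 3500 (SD, n = 4) and the high cholesterol WT mean 9431 ± 2200.

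The gene fell by 0.92 ± 0.18 in WT (1.89-fold, 95% confidence interval of the difference -1.3 to -0.54, adjusted p = 0.00147). In the KO it fell by 0.94 ± 0.18 (1.91-fold, interval -1.32 to -0.558, adjusted p = 0.0011). Its second probe, ILMN_3114124, fell by 1.00 ± 0.17 in WT (adjusted p = 0.000376) and by 1.09 ± 0.17 in the KO (adjusted p = 0.000142) when all 12248 kept probes were tested singly. In that test 24.6% of probes passed in WT and 27.7% in the KO. The difference between the 2 probes did not change with diet beyond the spread, by -0.08 in WT (exact permutation p = 0.486) and -0.16 in the KO (exact permutation p = 0.114, two-sided, n = 4 against 4).

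Akr1c6 belongs to the aldo-keto reductase family, and it was measured near background. It was detected on 4 of 4 chow WT, 2 of 4 chow KO, 4 of 4 high cholesterol WT and 3 of 4 high cholesterol KO arrays, at intensities of 8.56 to 48.2. Never-detected probes had a standard deviation of 4.47 to 5.51 intensity units with chow, and with high cholesterol it was 6.54 to 8.08. Levels on chow were 5.40, 5.11, 5.24 and 5.14 in WT and 4.93, 5.05, 4.86 and 5.30 in the KO. On the high cholesterol diet they were 5.36, 5.29, 5.50 and 5.29 in WT and 5.11, 5.87, 5.03 and 6.02 in the KO, so that replicates 2 and 4 of the KO lay above all other arrays. The difference was 0.14 ± 0.19 in WT (adjusted p = 0.637) and 0.47 ± 0.19 in the KO (interval 0.067 to 0.877, adjusted p = 0.0761). Without high cholesterol KO replicate 1 or replicate 3 the KO difference passed, at 0.61 (adjusted p = 0.0343) and 0.63 (adjusted p = 0.0207). Without replicate 2 or replicate 4, the high arrays, it was 0.36 (adjusted p = 0.208) and 0.30 (adjusted p = 0.247), the adjusted p ranging from 0.0207 to 0.247 over all settings. That the genotypes differ in this response was not shown (interaction 0.34 ± 0.27, adjusted p = 0.68).

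Acox2, the branched-chain acyl-CoA oxidase of the side-chain steps, had levels of 12.39, 12.11, 12.42 and 12.25 in chow WT and 12.57, 12.39, 12.58 and 12.35 in high cholesterol WT. In the KO they were 12.10, 12.18, 12.25 and 12.16 on chow and 12.01, 12.28, 12.35 and 12.49 on the high cholesterol diet. The groups overlapped in both genotypes. The diet difference was 0.18 ± 0.13 in WT (interval -0.0859 to 0.45, adjusted p = 0.309) and 0.11 ± 0.13 in the KO (interval -0.162 to 0.373, adjusted p = 0.566). Its sign turned with median scaling, to -0.19 and -0.14.

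Hsd17b4, the bifunctional protein with the hydratase and dehydrogenase steps, ranged from 12.27 to 12.59 in chow WT, 12.42 to 12.66 in chow KO, 12.24 to 12.73 in high cholesterol WT and 12.24 to 12.49 in high cholesterol KO. The diet difference was -0.02 ± 0.13 in WT (interval -0.29 to 0.259, adjusted p = 0.948) and -0.16 ± 0.13 in the KO (interval -0.436 to 0.113, adjusted p = 0.373). With median scaling it was -0.39 in WT (adjusted p = 0.0708) and -0.42 in the KO (adjusted p = 0.0544), over a range of adjusted p of 0.0708 to 0.971 in WT and 0.0544 to 0.582 in the KO. The brightest Scp2 probe, ILMN_2705886, gave 0.05 ± 0.14 in WT (interval -0.241 to 0.337, adjusted p = 0.823) and 0.05 ± 0.14 in the KO (interval -0.234 to 0.343, adjusted p = 0.797). With median scaling the sign for Scp2 turned, to -0.29 in WT (adjusted p = 0.172) and -0.27 in the KO (adjusted p = 0.2). By their brightest probes, these 3 peroxisomal genes were among the steadier genes within groups. The residual SD was 0.142 for Acox2, 0.15 for Hsd17b4 and 0.166 for Scp2, where the median over all genes was 0.255. Another Scp2 probe, ILMN_1221684, was less steady, with an SD of 0.139 to 0.342 within the groups. For the brightest probes of these 3 genes, the intervals leave room for differences of up to 0.45 in size, so equal levels are not shown.

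Scp2 makes the peroxisomal thiolase SCPx and, from an inner start, the shorter sterol carrier protein 2, and its 4 probes did not behave alike. Which transcript each probe reads is not given in the files. The second brightest probe, ILMN_2705881, differed by 0.12 ± 0.12 in WT (adjusted p = 0.498) and 0.06 ± 0.12 in the KO (adjusted p = 0.727). Probe ILMN_1221684 was also bright, at intensities of 4120 to 14000. Its levels were 12.80, 13.43, 13.52 and 13.41 in chow WT and 12.91, 12.96, 12.44 and 13.16 in high cholesterol WT. In the KO they were 13.81, 13.78, 13.76 and 13.51 on chow and 12.77, 12.14, 12.38 and 12.87 on the high cholesterol diet. The KO groups did not overlap, and the WT groups did, with chow WT replicate 1 below 3 of the high cholesterol WT arrays.

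This probe fell by 1.17 ± 0.20 in the KO (2.26-fold, interval -1.59 to -0.761, adjusted p = 0.000331 over the 12248 probes). In WT the difference was -0.42 ± 0.20 (interval -0.833 to -0.00738, adjusted p = 0.127), and without chow WT replicate 1 it passed at -0.59 (adjusted p = 0.0374, range 0.00479 to 0.336 over the settings). The interaction was -0.75 ± 0.28 and did not pass (adjusted p = 0.426), and 0.00816% of all probes did. Within an array, the level of ILMN_1221684 minus that of ILMN_2705886 went from -0.45 ± 0.04 (SD) on chow to -1.68 ± 0.17 on the high cholesterol diet in the KO. The exact permutation p was 0.0286, the smallest that 4 against 4 can give, and 0.172 after adjustment over the 12 probe comparisons. In WT this difference went from -0.90 ± 0.30 to -1.37 ± 0.18 (exact permutation p = 0.0857). On chow the same measure was higher in the KO than in WT by 0.45, without overlap, and chow WT replicate 1 was the lowest chow array. This genotype difference did not pass after adjustment (exact permutation p = 0.0286, adjusted p = 0.172). The dim probe ILMN_2651412 was detected on 4, 2, 1 and 3 of 4 arrays in chow WT, chow KO, high cholesterol WT and high cholesterol KO, and it did not pass in any comparison.

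**Figure D2:**
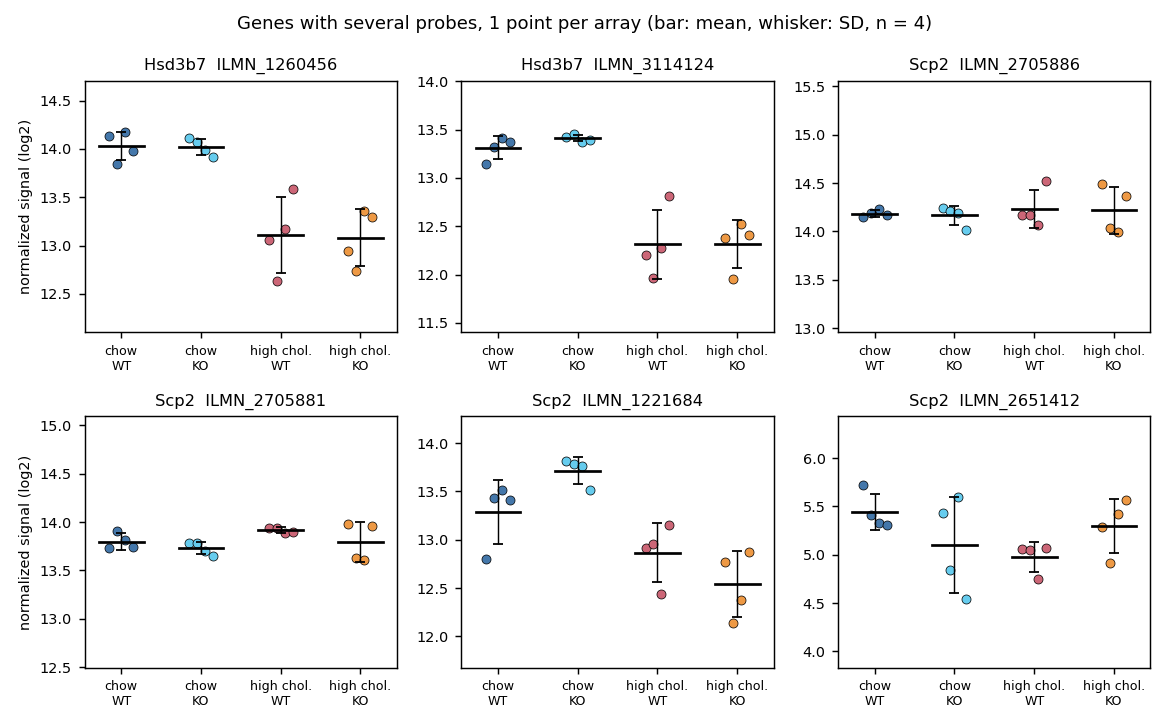
Normalized log2 signal of the 2 Hsd3b7 probes and the 4 Scp2 probes, 1 point per array; bars are means and whiskers SD, n = 4, with the same log2 span in every panel. Both Hsd3b7 probes are lower on the high cholesterol diet, and of the Scp2 probes ILMN_1221684 separates the diets in the KO, by 1.17 in log2 level.

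Slc27a5, the liver bile acid-CoA ligase that prepares bile acids for conjugation, fell in both genotypes. Its levels were 12.71, 13.09, 12.94 and 13.13 in chow WT and 12.65, 12.75, 11.75 and 12.47 in high cholesterol WT. In the KO they were 13.40, 13.19, 13.25 and 13.10 on chow and 12.92, 12.50, 12.82 and 12.60 on the high cholesterol diet. The KO groups did not overlap. The WT groups overlapped, since chow replicate 1 lay just under high cholesterol replicate 2, and high cholesterol replicate 3 was the lowest of all arrays.

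The difference was -0.56 ± 0.19 in WT (1.48-fold, interval -0.954 to -0.171, adjusted p = 0.0341) and -0.52 ± 0.19 in the KO (1.44-fold, interval -0.916 to -0.133, adjusted p = 0.0443). Both calls depended on single arrays and on settings. In WT the call was lost without chow WT replicate 2, 3 or 4 (adjusted p = 0.0802, 0.0599 and 0.0881) or high cholesterol WT replicate 3, where the difference became -0.35 (adjusted p = 0.103). In the KO it was lost without any of the 4 chow KO arrays, without high cholesterol KO replicate 2, 3 or 4, or without chow WT replicate 3 or 4, with differences of -0.45 to -0.57 and adjusted p up to 0.112. The KO call was also lost with the authors' normalized values (adjusted p = 0.0564) and with no detection filter (adjusted p = 0.0602), and the WT call with only the groups compared (adjusted p = 0.0859). With median scaling the WT difference was -0.96. Averaged over the genotypes, a comparison chosen after seeing the data, the gene fell by 0.54 ± 0.13 (adjusted p = 0.00315), where 43.2% of all genes passed.

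Baat, the bile acid-CoA:amino acid N-acyltransferase that completes conjugation, moved the other way. Its levels were 10.25, 9.85, 10.22 and 9.73 in chow WT and 10.55, 10.35, 10.11 and 10.42 in high cholesterol WT. In the KO they were 9.96, 9.54, 9.77 and 10.02 on chow and 10.11, 10.07, 10.32 and 10.92 on the high cholesterol diet. The WT groups overlapped, the KO groups did not, and high cholesterol KO replicate 4 was the highest of all arrays.

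Baat rose by 0.53 ± 0.19 in the KO (1.44-fold, interval 0.133 to 0.924, adjusted p = 0.0447). In WT the difference was 0.34 ± 0.19 (interval -0.0541 to 0.737, adjusted p = 0.193). The genotypes were not shown to differ in this response (interaction 0.19 ± 0.27, adjusted p = 0.831). The KO call was lost without high cholesterol KO replicate 4, at 0.34 (adjusted p = 0.158), and without high cholesterol KO replicate 3, chow KO replicate 1, 2 or 3, chow WT replicate 2 or high cholesterol WT replicate 2 (adjusted p of 0.0501 to 0.126). With median scaling it was also lost, at 0.39 (adjusted p = 0.182). The same held with the authors' normalized values (adjusted p = 0.0563), with no detection filter (adjusted p = 0.0616) and with only the groups compared (adjusted p = 0.068). Averaged over the genotypes, the comparison chosen after seeing the data, Baat rose by 0.44 ± 0.13 (adjusted p = 0.014), where 43.2% of all genes passed.

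**Figure D3:**
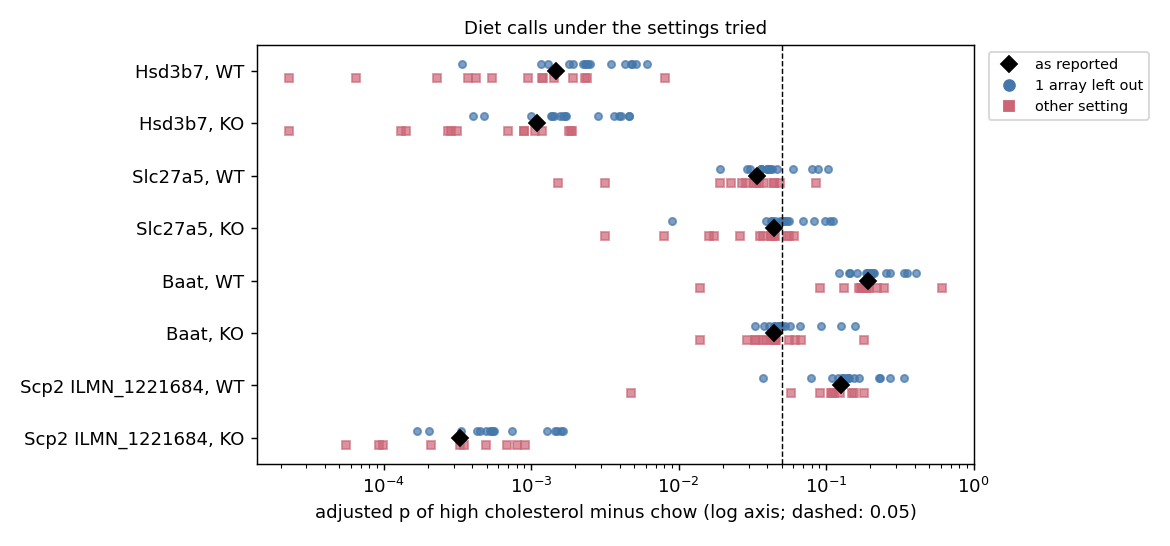
Adjusted p of the diet difference (log axis, dashed line at 0.05) for Hsd3b7, Slc27a5, Baat and the Scp2 probe ILMN_1221684 in WT and KO; diamonds are the values reported, circles leave out 1 array each and squares are the other settings. Hsd3b7 stays at or below 0.00807 in both genotypes, and Slc27a5 and the KO value of Baat lie on both sides of the line.

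Arrays of the diets did not overlap for 1 of the 7 genes in WT (Hsd3b7) and for 3 in the KO (Hsd3b7, Slc27a5 and Baat). Over all genes tested, 25.4% did not overlap in WT and 30.3% in the KO. KO and WT arrays overlapped for all 7 genes on both diets, where 13.7% of all genes did not overlap on chow and 3.92% did not on the high cholesterol diet.

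The knockout was compared with WT on each diet to ask whether these genes depend on c-Met. On chow 0 of the 7 genes passed in limma by their brightest probes, with 0 at an unadjusted p under 0.05. Of all genes 0% passed and 15.9% were under 0.05 unadjusted. On the high cholesterol diet 0 of 7 passed, again with 0 unadjusted, where 0.162% of all genes passed and 9.77% were under 0.05 unadjusted. For the interaction 0 of 7 passed, with 0 unadjusted, beside 0.0108% and, unadjusted, 10.4% of all genes. Averaged over the diets 0 of 7 passed, with 1 unadjusted, beside 0.108% and, unadjusted, 15.5% of all genes. That gene was Slc27a5, higher in the KO by 0.29 ± 0.13 (interval 0.0112 to 0.565, unadjusted p = 0.0423, adjusted p = 0.306). Hsd3b7 differed between the genotypes by -0.01 on chow (interval -0.391 to 0.367) and -0.03 on the high cholesterol diet (interval -0.409 to 0.349). Over the brightest probes of the 7 genes, the intervals reached 0.66 in size on chow and 0.699 on the high cholesterol diet. Differences within the intervals are not excluded. Tested singly in limma, the Scp2 probe ILMN_1221684 differed by 0.43 ± 0.20 on chow (interval 0.0147 to 0.841, unadjusted p = 0.0432, adjusted p = 0.319). Its interaction was -0.75 (unadjusted p = 0.0143, adjusted p = 0.426). For the dim Scp2 probe ILMN_2651412 the interaction was 0.65 (unadjusted p = 0.0379, adjusted p = 0.479).

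**Figure D4:**
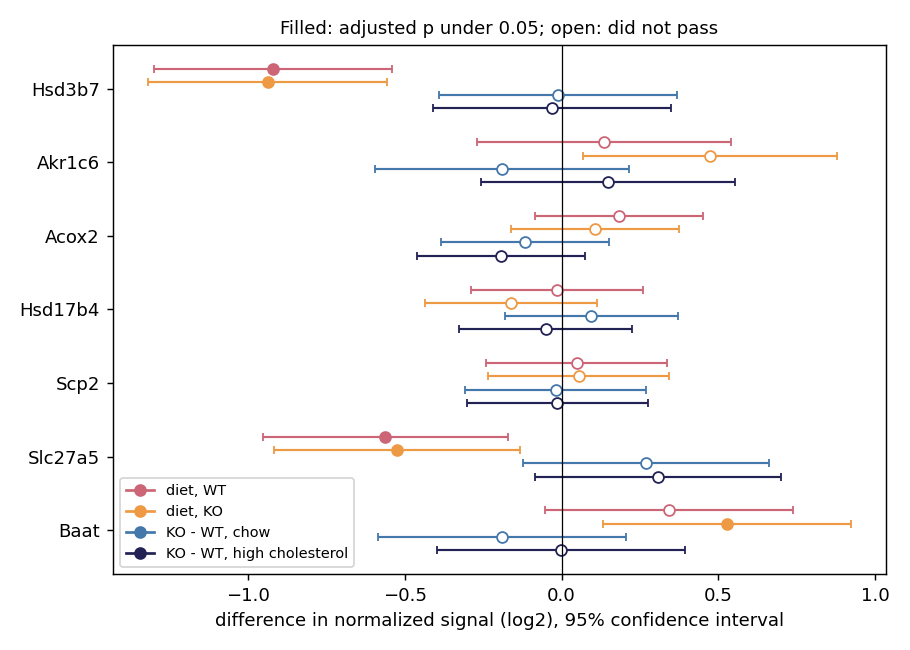
Differences in normalized log2 signal with 95% confidence intervals for the 7 tested genes, for the diets in each genotype and for KO minus WT on each diet; filled points passed the adjusted p threshold of 0.05. The 5 filled points are Hsd3b7 and Slc27a5 in both genotypes and Baat in the KO, and all KO minus WT intervals cross 0.

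The members also differed in how alike their profiles were, measured as the root mean square difference of levels over the 16 arrays after each gene was centred on its own mean. The closest pair was Acox2 and Hsd17b4 at 0.204 and the farthest Hsd3b7 and Baat at 0.731, while Hsd3b7 and Slc27a5 were 0.432 apart. Among all genes, Hsd3b7 was nearest to Mreg (0.144) and Ethe1 (0.178), against a median of 0.579 to all genes. Slc27a5 was nearest to Haao, an enzyme of tryptophan breakdown (0.144), and 1600014C10Rik (0.172), against a median of 0.482. Baat was nearest to D7Ertd443e (0.162) and Rps27l (0.18), against a median of 0.454. For Scp2 the nearest were Rdh7 (0.1) and Dnajb12 (0.122), for Acox2 1110003E01Rik (0.12) and Arpc5 (0.123), for Hsd17b4 Alkbh3 (0.0981) and Fam173a (0.103), and for Akr1c6 Shfm1 (0.197) and Mrpl50 (0.198). All arrays share the diet contrast, so a small distance describes these arrays only.

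Upstream of these genes lie the hydroxylases, counted beside calls for 25.4% of all genes in WT and 27.6% in the KO. Of 6 tested hydroxylase genes, 0 rose and 4 fell in each genotype, with a median difference of -1.33 in WT and -1.3 in the KO. Cyp7b1, the oxysterol hydroxylase of the alternative route, fell by 2.05 ± 0.30 in WT (adjusted p = 0.000162) and by 1.90 ± 0.30 in the KO (adjusted p = 0.000244). Cyp27a1, the mitochondrial side-chain hydroxylase, fell by 0.60 ± 0.17 in WT (adjusted p = 0.0126) and by 0.70 ± 0.17 in the KO (adjusted p = 0.00451), a size between those of Slc27a5 and Hsd3b7. Cyp8b1, which sets the share of cholic acid, was detected on 1 of 4 high cholesterol WT arrays and 0 of 4 high cholesterol KO arrays, and in the KO it was at least 278-fold lower (adjusted p = 1.03e-17). That bound sets each undetected array at the lowest signal detected on it, or at the probe's own signal where higher. Cyp7a1, the rate-limiting enzyme of the main route, was detected on 1 of 4 arrays in each high cholesterol group and on all chow arrays.

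Genes of bile acid sensing and transport were counted too, again beside calls for 25.4% of all genes in WT and 27.6% in the KO. Among 11 tested genes of bile acid sensing and control, 1 rose and 3 fell in WT, and 1 rose and 1 fell in the KO (median difference -0.09 and -0.34). Nr5a2, a nuclear receptor that drives bile acid synthesis genes, fell by 0.50 ± 0.17 in WT (adjusted p = 0.0369) and by 0.51 ± 0.17 in the KO (adjusted p = 0.0335). Nr1i2, the xenobiotic receptor PXR, rose by 0.84 ± 0.26 in WT (adjusted p = 0.0231) and 0.85 ± 0.26 in the KO (adjusted p = 0.0211). Nr0b2, which encodes Shp, was not detected on any array. Of 9 tested hepatocyte bile acid transporters, 4 rose and 1 fell in WT and 2 rose and 1 fell in the KO (median difference 0.53 and 0.11). Abcb11, the canalicular export pump that takes up the conjugates made by Baat, rose by 1.00 ± 0.21 in WT (adjusted p = 0.00278) and 0.72 ± 0.21 in the KO (adjusted p = 0.0192).

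Peroxisomal genes outside the bile acid branch were counted as well, beside calls for 25.4% of all genes in WT and 27.6% in the KO. Of 26 tested genes of peroxisomal beta-oxidation and its auxiliary enzymes, 3 rose and 5 fell in WT and 4 rose and 5 fell in the KO (median difference -0.17 and 0.01). Ehhadh, the bifunctional protein of the straight-chain branch, rose by 1.24 ± 0.17 in WT (adjusted p = 7.39e-05) and 1.51 ± 0.17 in the KO (adjusted p = 9.09e-06). Nudt7, a peroxisomal coenzyme A hydrolase, fell by 1.67 ± 0.21 in WT (adjusted p = 4.07e-05) and by 1.68 ± 0.21 in the KO (adjusted p = 3.27e-05). Of 15 tested genes of peroxisome import and assembly, 0 rose and 5 fell in WT and 0 rose and 3 fell in the KO (median difference -0.23 and -0.26). Pex16, which recruits peroxisomal membrane proteins, fell by 1.40 ± 0.15 in WT (adjusted p = 5.66e-06) and by 0.62 ± 0.15 in the KO (adjusted p = 0.00444). Between the genotypes and in the interaction, 0 genes of these 5 lists passed.

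Markers of liver cell types were read beside these results, where 25.4% of all genes passed between the diets in WT and 27.6% in the KO. Of 12 tested hepatocyte markers, 1 rose in WT and 2 in the KO and 0 fell in either, and their summed linear normalized level was 149000 to 163000 in chow WT, 159000 to 162000 in chow KO, 139000 to 156000 in high cholesterol WT and 154000 to 157000 in high cholesterol KO. With median scaling the markers gave 6 lower calls in WT and 4 in the KO. Of 10 tested macrophage markers, 7 rose and 0 fell in each genotype, and their summed level went from 2540 to 3250 in chow WT to 5580 to 8070 in high cholesterol WT, and from 2740 to 3260 in chow KO to 4380 to 9230 in high cholesterol KO. One macrophage marker passed between the genotypes: on the high cholesterol diet Gpnmb differed by -2.30 ± 0.41, KO minus WT (adjusted p = 0.0234), without overlap. The macrophage marker Cd5l was not detected on any array. Of 5 cholangiocyte markers, 1 rose in WT and 3 in the KO. Their sums were 247 to 331 in chow WT, 529 to 3210 in high cholesterol WT, 237 to 365 in chow KO and 441 to 857 in high cholesterol KO. Krt7, called in the KO, was detected on no chow KO array, and by the bound used for Cyp8b1 it was at least 1.14-fold higher. Of 9 stellate cell markers, 4 rose in WT and 1 fell in the KO. Of 9 endothelial markers, 1 rose and 2 fell in WT and 2 fell in the KO. The KO call of the endothelial marker Kdr rests on high cholesterol arrays that did not detect it. By the same bound its difference was 0.14, so a fall of Kdr is not shown. The 1 tested neutrophil marker, S100a8, rose by 2.98 ± 0.41 in WT (7.9-fold, adjusted p = 8.4e-05) and 3.48 ± 0.41 in the KO (11.2-fold, adjusted p = 1.69e-05). Of 2 tested lymphocyte markers, 1 rose in each genotype, Ms4a1, which no chow array detected and 2 of 4 arrays detected in each high cholesterol group. The part of these markers in the changes of Hsd3b7, Slc27a5 and Baat was not tested.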

How the data were processed

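Biotinylated cRNA was prepared from liver total RNA, per the labels' protocols, and GenomeStudio 2009.1 is named in the submitters' processing notes. In the deposited signal table each probe has 1 intensity per sample, not normalized between arrays and below 0 in 121004 cases, and the authors' detection p-value. The authors also deposited normalized intensity values on the linear scale, used here only as an alternative. The sources used here say no more of how the tables were made.

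Signals were corrected with limma 3.58.1 (R 4.3.3) by the normexp model (background from the detection p-values, offset 16), quantile-normalized and taken to log2, so that a bright probe's level follows its rank on the array. Probes detected (p under 0.05) on at least 4 of 16 arrays were kept, 12248 of 25697, for 9265 of 18138 symbols, and the brightest kept probe stood for a gene. A mean per group was fitted with lmFit and eBayes on all 16 arrays, and limma's two-sided test was adjusted by Benjamini-Hochberg over all genes of a comparison at 0.05. Probe differences within arrays were compared by exact permutation over samples, two-sided. The members, lists and tests were chosen with earlier results of these data known. Beside the members, the text names up to 4 genes of each list with the smallest p in the WT diet comparison, Met, Cyp7a1, Cyp8b1, and the 2 genes nearest to each member; others named are genes that no array detected. The alternatives changed the background correction, normalization, filter, probe rule, model and the arrays used. A further alternative, added after seeing the data, replaced the diet comparison within a genotype by the average over the genotypes. The procedure was tested on simulated data. Of 120 array pairs, 0 held identical values. Figures were drawn with matplotlib 3.10.9 in Python 3.11.15.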

Additional observations from a re-analysis of the deposited data

How the results depend on the processing

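Of 1368 values recomputed under 30 settings, 1238 kept their direction and their side of the threshold, 95 changed sign with neither value called, 28 lost a call and 6 gained one. The lost calls were Slc27a5 in 5 settings in WT and 12 in the KO, and Baat in 11 in the KO. Hsd3b7 passed in all 30 settings in both genotypes (difference -1.27 to -0.756 in WT and -1.2 to -0.826 in the KO). Those settings include the diet averaged over the genotypes, which tests neither genotype alone and gave the gained call of Baat in WT. One value reversed: with probes tested singly, the Scp2 diet difference in the KO was -1.17 (adjusted p = 0.000331), read from ILMN_1221684, against 0.05 for the brightest probe. The number of members called in the KO, 3 as reported, was 1 with the authors' normalized values and 1 with no detection filter, where more genes are tested. It was 2 with the replicate number as a block and 1 to 4 with 1 array left out, being 1 without chow KO replicate 1, 2 or 3 or high cholesterol KO replicate 4. The number in WT, 2 as reported, was 1 with only the groups compared in the fit, where fewer arrays give the spread. It was 1 to 2 with 1 array left out, being 1 without chow WT replicate 2, 3 or 4 or high cholesterol WT replicate 3. Slc27a5 in the KO lost its call under the replicate block (-0.52, adjusted p = 0.0547). The replicate numbers were not taken as pairs, because the labels name no pairs. Of 24 same-numbered pairs, 7 had deviations correlated over 0.1 (-0.124 to 0.274) and 10 correlated best with their own number. Between high cholesterol WT and KO the correlations were 0.221, 0.0987, 0.259 and 0.274, so a link between same-numbered samples is not excluded. Median scaling moved the median difference of all genes to -0.0894 in WT, -0.108 in the KO, -0.121 for KO minus WT on chow and -0.137 on the high cholesterol diet, and gave Hsd3b7 -1.27 and -1.20 and Slc27a5 -0.96 and -0.76. Between the genotypes and in the interaction, 0 members passed in any setting. Over all genes, KO minus WT on chow gave 0 calls as reported, 351 with array weights and 74 with only the groups compared. On the high cholesterol diet it gave 15 as reported, 26 with median scaling and 0 with only the groups compared, and averaged over the diets 10 as reported, 223 with median scaling and 0 with the replicate block. The slide as a block was not run, because the files give none. Akr1d1, Amacr and Akr1c6 are limited by signal near background. The cause of these shifts was not tested.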

Other observations

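Relatives of the bile acid enzymes were compared between the diets, where 25.4% of all genes passed in WT and 27.6% in the KO. Of 19 tested relatives, 3 rose and 5 fell in WT and 3 rose and 6 fell in the KO, with a median difference of -0.13 and -0.08. Hsd17b6, a dehydrogenase of 3alpha- and 17beta-hydroxysteroids, rose by 2.83 ± 0.33 in WT (7.12-fold, adjusted p = 1.54e-05) and 3.61 ± 0.33 in the KO (12.2-fold, adjusted p = 1.08e-06). Hsd17b7, which also acts in cholesterol synthesis, fell by 1.44 ± 0.19 in WT (adjusted p = 4.56e-05) and by 1.87 ± 0.19 in the KO (adjusted p = 3.17e-06). Hsd17b10, a mitochondrial dehydrogenase, fell by 1.04 ± 0.16 in WT (adjusted p = 0.000159) and by 0.80 ± 0.16 in the KO (adjusted p = 0.00119). Akr1b7, an aldo-keto reductase, was detected on 0 of 4 chow WT and 4 of 4 high cholesterol WT arrays and was at least 7.47-fold higher (adjusted p = 0.000247).

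Taurine, which Baat joins to bile acids, comes from cysteine and from uptake. Of 10 tested genes of taurine and cysteine metabolism, 3 rose and 2 fell in WT and 3 rose and 1 fell in the KO, with a median difference of -0.19 and -0.01. Over all genes 25.4% passed between the diets in WT and 27.6% in the KO. Slc6a6, the taurine transporter, rose by 1.05 ± 0.17 in WT (adjusted p = 0.000372) and 0.68 ± 0.17 in the KO (adjusted p = 0.0078). Gclc and Gclm, the subunits of the enzyme that starts glutathione synthesis from cysteine, rose by 1.22 ± 0.22 and 0.96 ± 0.18 in WT (adjusted p = 0.00078 and 0.000827) and by 1.21 ± 0.22 and 0.87 ± 0.18 in the KO (adjusted p = 0.000699 and 0.00162). Cbs, the first enzyme on the way from homocysteine to cysteine, fell by 0.97 ± 0.22 in WT (adjusted p = 0.00388) and by 0.71 ± 0.22 in the KO (adjusted p = 0.0225).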
